A study of Homo sapiens with 15 samples.

Results

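The core cardiac transcription factors are the DNA-binding proteins, and 1 coactivator, that switch on and maintain the gene program of heart muscle. The genes described here are GATA4, GATA6, NKX2-5, MEF2A, MEF2C, TBX20, SRF and MYOCD. They were found by symbol in the gene count table, which gave 8 rows of 59429. All 8 passed the filter on low counts that kept 24659 genes for testing. RNA was sequenced from cells of the established human embryonic stem cell line H7, differentiated toward atrial cardiomyocytes with retinoids, wild type in genotype in every library. Per the labels' protocols, spheroids were dissociated on day 17, and no treatment or harvest day is given here. The 5 groups had 3 libraries each. Cells received siRNA-1 or siRNA-2 against ATRNL1, scramble control siRNA, a lentivirus for overexpression of the short isoform of ATRNL1, or a control lentivirus. Transduced cells were selected with puromycin. ATRNL1 encodes attractin-like 1, a membrane protein, and the study asked what its level does in these cells. The labels name no separate cultures for the libraries of a group. The p-values therefore reflect only library-to-library spread, which may be technical. All libraries came from 1 cell line.

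GATA4 and GATA6 are zinc-finger proteins that bind GATA sites, NKX2-5 is a homeodomain protein, and TBX20 is a T-box protein that both activates and represses heart genes. MEF2A and MEF2C are MADS-box proteins that bind AT-rich sites in muscle promoters and are held in check by class II histone deacetylases. SRF is a further MADS-box protein that binds CArG boxes, and MYOCD encodes myocardin, the coactivator that steers SRF toward muscle genes and away from growth-response genes. These proteins bind each other on shared enhancers and regulate each other's genes, and mutations in several of them cause congenital heart disease.

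Promoter sequences are shown for the 3 factors whose windows held sites of the group's own proteins. Enhancers and other sequence outside these windows were not searched. RefSeq windows on GRCh38.p14, running from 250 bases before each annotated start, were matched by symbol for 5 of the 8 genes (GATA6, MEF2A, MEF2C, SRF and TBX20), with 14 windows in all. Both strands were searched for the CArG box, the MEF2 site, GATA sites (AGATAA or AGATAG or TGATAA or TGATAG), the T-box site GGTGTGA and the NKX2-5 site (CACTTAA or CACTTGA). Among 34943 promoter windows of that length, 1.16% held a CArG box, 0.518% a MEF2 site, 22.4% a GATA site, 2.76% the T-box site and 4.15% the NKX2-5 site. The SRF window at its first start (chr6:43171019-43171268, plus strand) held 2 CArG boxes, in capitals, and 1 GATA site. A MEF2A window inside the gene's span (chr15:99565951-99565980, plus strand) held 1 MEF2 site, in capitals in the 30 bases shown. A MEF2C window inside the gene's span (chr5:88884587-88884786, minus strand) held 3 GATA sites, in capitals in the 200 bases shown. No match shared bases with a match of another motif in these windows.
SRF: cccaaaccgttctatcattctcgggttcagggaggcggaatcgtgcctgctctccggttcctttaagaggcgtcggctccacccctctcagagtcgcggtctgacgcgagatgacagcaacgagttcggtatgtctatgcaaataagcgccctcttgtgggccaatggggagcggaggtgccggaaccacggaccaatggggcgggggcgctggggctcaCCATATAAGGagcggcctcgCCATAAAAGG
MEF2A: ggcttgtctcCTAAAAATAGccccggtgtg
MEF2C: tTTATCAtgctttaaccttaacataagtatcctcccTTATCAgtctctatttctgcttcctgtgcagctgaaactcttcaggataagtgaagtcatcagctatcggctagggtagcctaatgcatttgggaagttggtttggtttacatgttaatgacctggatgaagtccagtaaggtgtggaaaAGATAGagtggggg
Of the other windows, 2 more of MEF2C held 2 GATA sites each, and the rest, those of TBX20 and GATA6 among them, held none of the 5 motifs. A match describes letters in a window and shows no binding.

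Total counts ran from 37078568 to 108663135 per library. ATRNL1 stood at 9.16 ± 0.986 CPM, counts scaled to library size, under siRNA-1 and 4.98 ± 0.405 CPM under siRNA-2, against 15.3 ± 1.52 CPM with scramble (mean ± SD, n = 3 each). It stood at 763 ± 149 CPM with the ATRNL1 lentivirus and 27.9 ± 1.11 CPM with the control lentivirus. The 9 cardiomyocyte markers summed to 51042.8 to 53265.5 CPM with the ATRNL1 lentivirus, just above 46778.7 to 50995.5 CPM with the control lentivirus. In the siRNA arm, whose groups overlapped scramble, they summed to 43493.7 to 56377.8 CPM. Averaged over the 15 libraries, the atrial genes MYL7 and NR2F2 stood at 2195.9 and 57.8 CPM, NR2F1 at 0.574 CPM, and the ventricular genes MYL2 and MYH7 at 2088.5 and 7222.7 CPM. The 4 ventricular markers summed to 14094.1 to 15324 CPM with the ATRNL1 lentivirus, against 8711.7 to 10535.2 CPM with the control lentivirus. The same sum was 6884.2 to 8378.4 CPM in siRNA-1 cells, 9524.7 to 9719.8 CPM in siRNA-2 cells and 5233 to 5833.7 CPM with scramble. The 7 pluripotent markers summed to no more than 0.57 CPM and the 8 skeletal muscle markers to no more than 1.42 CPM in any library. The SD of the log2 difference between 2 libraries, over genes above 20 CPM, was 0.0832 to 0.141 within siRNA-1 and 0.105 to 0.106 within siRNA-2. Within scramble it was 0.253 between libraries 1 and 2, 0.132 between 1 and 3 and 0.137 between 2 and 3.

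Per exon length, TBX20 was the most abundant of the 8, with a mean of 1042.8 TPM, reads per exon length scaled to library total, over the 15 libraries, rank 52 of all genes. MEF2A followed at 460 TPM, MYOCD at 247 TPM, NKX2-5 at 199 TPM and GATA6 at 184 TPM. GATA4 stood at 142 TPM, SRF at 134 TPM and MEF2C at 36.1 TPM, the last at rank 4454. This order of the means differed between the arms: MYOCD stood at 366 TPM and NKX2-5 at 71.3 TPM with the control lentivirus, whereas MYOCD stood at 202 TPM and NKX2-5 at 262 TPM with scramble. TPM was computed over the length of all annotated exons of a gene, so a gene with long unused exons reads low. Within a gene, the highest library exceeded the lowest 1.5-fold for TBX20 and 3.96-fold for NKX2-5, with the other 6 factors between 2.03-fold and 2.47-fold. The first principal component of all genes held 54.8% of the variance and parted lentiviral from siRNA libraries. On it the control lentivirus libraries scored 106 to 122, the ATRNL1 lentivirus libraries 48.6 to 69.7 and the siRNA-arm libraries -74.1 to -49.5.

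**Figure D1:**
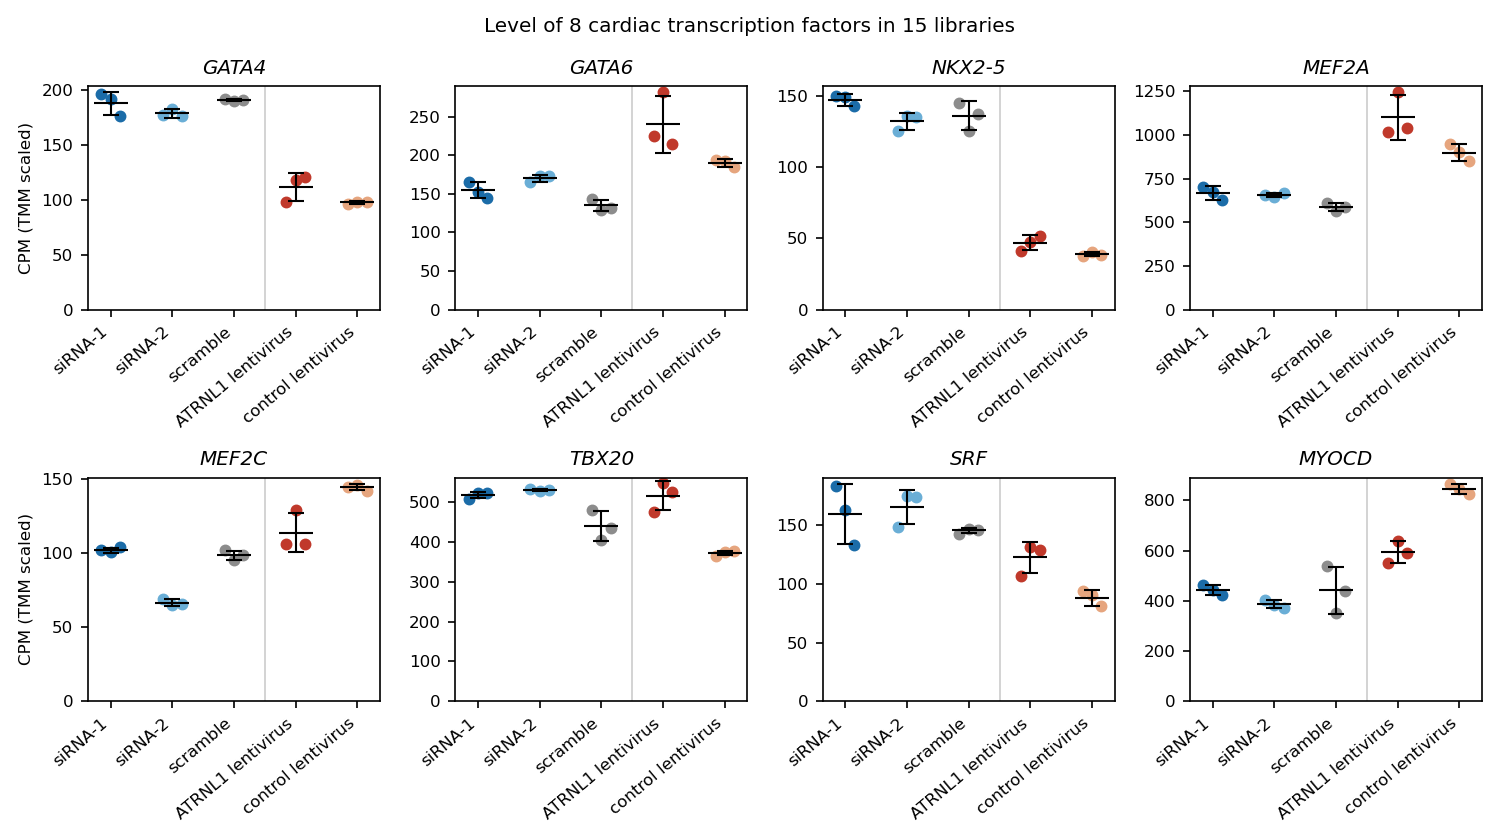
CPM of the 8 factors (vertical axes from 0, scaled by TMM) in the 15 libraries, 1 panel per gene, with a point per library and a bar for the mean ± SD of 3 libraries; a grey line parts the siRNA groups from the lentiviral groups. NKX2-5 and GATA4 are lower, and MEF2A and MYOCD higher, in both lentiviral groups than in the siRNA groups, and MEF2C is lowest with siRNA-2, all without GC content offsets.

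With siRNA-1, 1 of 8 was called changed at a Benjamini-Hochberg adjusted p under 0.05 in edgeR's quasi-likelihood test over all genes, and it was TBX20, which rose. Over all genes tested 9.61% were called in that comparison, 5.85% higher and 3.76% lower. With siRNA-2, 3 of 8 were called: GATA6 and TBX20 rose and MEF2C fell, where 18.1% of all genes were called, 9.64% higher and 8.48% lower. All 8 were called with the ATRNL1 lentivirus, where GATA4, GATA6, NKX2-5, MEF2A, TBX20 and SRF rose and MEF2C and MYOCD fell. However, GATA4 and NKX2-5 changed sign and 4 calls ended once trends over GC content and transcript length were removed. In that comparison 37.1% of all genes were called, 19.1% higher and 18% lower. These shares include many low genes, whereas all 8 factors had a mean above 1 CPM. When only genes with a mean of at least 1 CPM were tested, 19.8% were called with siRNA-1. The share was then 32.9% with siRNA-2 and 56.5% with the ATRNL1 lentivirus. The median log2 fold change of the 8 was 0.13 with siRNA-1, 0.06 with siRNA-2 and 0.28 with the ATRNL1 lentivirus, against -0.01, 0 and 0 over all genes tested. Both siRNA comparisons share the scramble libraries. Libraries of the groups compared did not overlap for 3 of 8 factors with siRNA-1 (28.8% of all genes), 6 of 8 with siRNA-2 (36.7%) and 7 of 8 with the ATRNL1 lentivirus (42.9%). In bulk RNA, fewer cells of a type and less RNA per cell cannot be told apart.

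**Figure D2:**
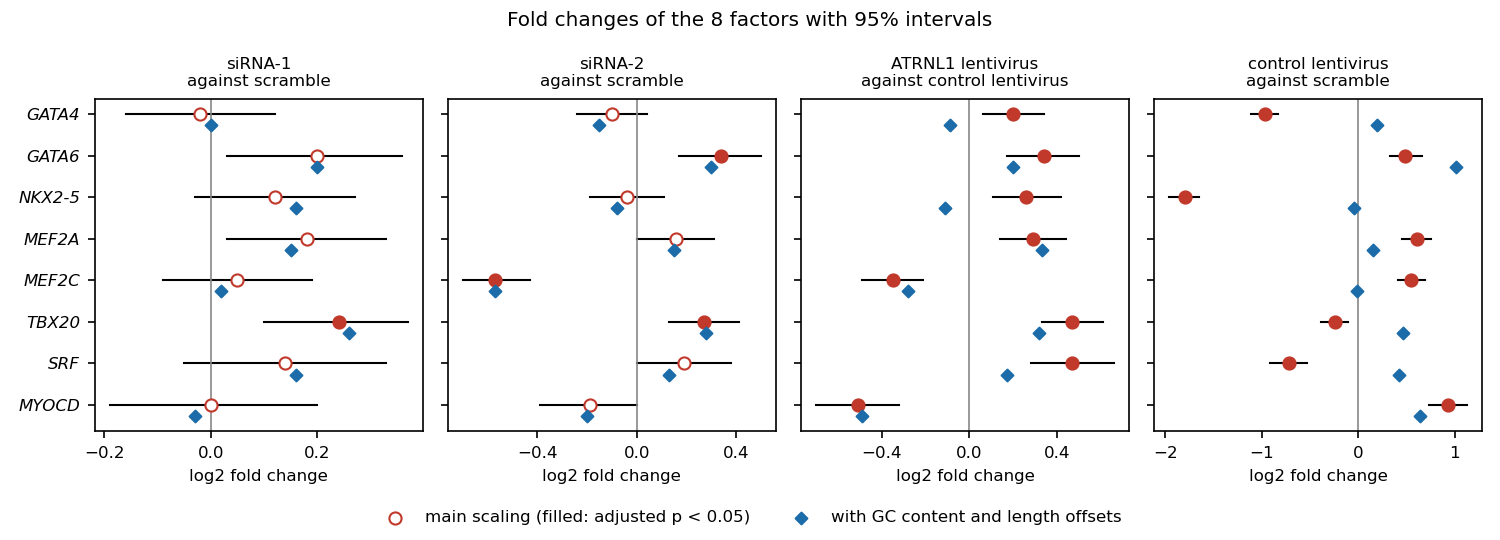
Log2 fold changes (horizontal axes, scales differ between panels) of the 8 factors in 4 comparisons, with circles for the main scaling, bars for 95% intervals and filled circles where the adjusted p was under 0.05; diamonds give the value after offsets for GC content and transcript length. MEF2C fell with siRNA-2 in both, while the GATA4 and NKX2-5 values with the ATRNL1 lentivirus lie on opposite sides of 0.

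GATA4 (ENSG00000136574.17, GRCh38 chromosome 8, 11676959 to 11760002, plus strand) is required for heart tube formation in mice. Its libraries read 196, 192 and 176 CPM in siRNA-1 cells and 177, 183 and 176 CPM in siRNA-2 cells, against 192, 190 and 191 CPM with scramble. The siRNA-1 libraries spanned the scramble range and the siRNA-2 libraries lay just below it. The log2 fold change was -0.02 (SE 0.07, adjusted p = 0.905) under siRNA-1, with a 95% interval of -0.16 to 0.12. It was -0.10 (SE 0.07, adjusted p = 0.423) under siRNA-2, with an interval of -0.24 to 0.04. GATA4 had 97.8, 118 and 121 CPM with the ATRNL1 lentivirus, against 96.4, 98.1 and 98.4 CPM with the control lentivirus. The first ATRNL1 library lay among the controls and the other two above them, and the gene rose by 0.20 (SE 0.07, adjusted p = 0.0309), a value that was -0.09 with GC content offsets. That call ended without ATRNL1 library 2 (0.17) or 3 (0.15), and without any single control library (0.20 to 0.22).

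GATA6 (ENSG00000141448.8, chromosome 18, 22169443 to 22202528, plus strand) overlaps GATA4 in function in the embryonic heart. It had 166, 153 and 145 CPM in siRNA-1 cells, 165, 173 and 173 CPM in siRNA-2 cells and 144, 129 and 132 CPM with scramble. Every library of either siRNA lay above every scramble library. GATA6 rose by 0.34 under siRNA-2 (SE 0.08, adjusted p = 0.00482), and its siRNA-1 value was 0.20 (SE 0.08, adjusted p = 0.157). Against scramble library 1 alone, the siRNA-2 value was 0.23 and was not called. It had 225, 282 and 214 CPM with the ATRNL1 lentivirus, against 194, 192 and 185 CPM with the control lentivirus. The groups did not overlap, the second ATRNL1 library stood highest, and GATA6 rose by 0.34 (SE 0.08, adjusted p = 0.002), or 0.20 and not called with GC content offsets.

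GATA6-AS1, a long noncoding RNA transcribed away from the GATA6 start on the opposite strand, shares 240 exon bases with GATA6. It averaged 72.8 ± 4.22 CPM in siRNA-1 cells and 68.6 ± 2.97 CPM in siRNA-2 cells, against 45.2 ± 8.43 CPM with scramble (SD, n = 3 each). It rose by 0.69 (SE 0.10, adjusted p = 3.89e-05) under siRNA-1. Under siRNA-2 it rose by 0.60 (SE 0.10, adjusted p = 6.94e-05), and against scramble library 1 alone that value was 0.36 and was not called. Its ATRNL1 lentivirus value was 0.08 (SE 0.10, adjusted p = 0.542), at 66.1 ± 6.58 CPM against 62.4 ± 4.83 CPM with the control lentivirus. No strand setting of the counting is known here, and reads from the shared bases cannot be told apart.

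NKX2-5 (ENSG00000183072.9, chromosome 5, 173232109 to 173235357, minus strand) marks cardiac progenitors and is kept on in working heart muscle. It had 150, 149 and 143 CPM in siRNA-1 cells, 125, 136 and 135 CPM in siRNA-2 cells and 145, 125 and 137 CPM with scramble. Both siRNA groups overlapped scramble, with values of 0.12 (SE 0.08, adjusted p = 0.405) for siRNA-1 and -0.04 (SE 0.08, adjusted p = 0.81) for siRNA-2. In ATRNL1 lentivirus cells it had 41.3, 47.1 and 51.9 CPM, against 37.9, 40.5 and 38.1 CPM with the control lentivirus. The groups lay next to each other without overlap, and NKX2-5 rose by 0.26 (SE 0.08, adjusted p = 0.00867), a value that was -0.11 with GC content offsets. Without ATRNL1 library 3 the value was 0.20 and the call ended. The control lentivirus held 38.9 ± 1.46 CPM, against 136 ± 10.3 CPM with scramble (SD, n = 3 each), a log2 value of -1.80 (SE 0.08, adjusted p = 3.89e-16) that was -0.04 and not called with GC content offsets.

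TBX20 (ENSG00000164532.10, chromosome 7, 35202430 to 35254147, minus strand) keeps the adult heart muscle program running in mice. It had 509, 524 and 522 CPM in siRNA-1 cells, 533, 529 and 531 CPM in siRNA-2 cells and 479, 405 and 436 CPM with scramble. All 6 knockdown libraries lay above the 3 scramble libraries, which spread over a wider range than either siRNA group. TBX20 rose by 0.24 (SE 0.07, adjusted p = 0.0326) under siRNA-1. Under siRNA-2 it rose by 0.27 (SE 0.07, adjusted p = 0.0071). Its call for siRNA-1 ended without siRNA-1 library 1 (0.25), 2 (0.23) or 3 (0.24) and without scramble library 2 (0.19) or 3 (0.23). The siRNA-2 call ended without scramble library 2, at 0.21. Against scramble library 1 alone, the nearest to the knockdown libraries, TBX20 stood at 0.11 for siRNA-1 and 0.14 for siRNA-2, and against scramble library 3 alone at 0.26 and 0.29, none of them called. In ATRNL1 lentivirus cells TBX20 had 476, 547 and 525 CPM, against 365, 374 and 377 CPM with the control lentivirus. These groups stood well apart, and TBX20 rose by 0.47 (SE 0.07, adjusted p = 6.39e-06), a 1.39-fold difference that was called in all 15 alternatives at 0.32 to 0.54. Its overexpression effect less the average of both knockdown effects was 0.22 (SE 0.09, adjusted p = 0.0778).

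MEF2A (ENSG00000068305.17, chromosome 15, 99565417 to 99716466, plus strand) is the MEF2 member that predominates in postnatal heart. It had 705, 676 and 626 CPM in siRNA-1 cells, 659, 645 and 670 CPM in siRNA-2 cells and 614, 568 and 591 CPM with scramble. Both siRNA groups lay above scramble without overlap, by 0.18 (SE 0.08, adjusted p = 0.172) and 0.16 (SE 0.08, adjusted p = 0.189) for siRNA-1 and siRNA-2, and neither value passed the threshold. In cells with the ATRNL1 lentivirus MEF2A had 1018.5, 1247.5 and 1039.2 CPM, against 948, 904 and 849 CPM with the control lentivirus. The groups did not overlap, and MEF2A rose by 0.29 (SE 0.08, adjusted p = 0.0042), called in all 15 alternatives at 0.20 to 0.36.

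MEF2C (ENSG00000081189.15, chromosome 5, 88717117 to 88904257, minus strand) is needed for the looping heart tube and the anterior heart field in mice. It had 102, 101 and 104 CPM in siRNA-1 cells, 69.2, 64.8 and 66 CPM in siRNA-2 cells and 102, 95.4 and 98.6 CPM with scramble. The siRNA-2 libraries stood alone below the other 6. MEF2C fell by 32.4% with siRNA-2, a log2 value of -0.57 (SE 0.07, adjusted p = 2.25e-06), and this was called in all 18 alternatives at -0.62 to -0.49. With siRNA-1 the value was 0.05 (SE 0.07, adjusted p = 0.756, 95% interval -0.09 to 0.19). Set directly against each other, siRNA-1 exceeded siRNA-2 by 0.62 (SE 0.07, adjusted p = 1.78e-06), 1.53-fold, and MEF2C was the 1 factor of 8 called between the siRNAs, where 10.1% of all genes were called, 5.6% higher and 4.53% lower. At a mean of 1 CPM or more, 20.6% of genes were called. Libraries of the siRNA groups did not overlap for 4 of 8 factors, against 33.9% of all genes. ATRNL1 itself was 0.87 (SE 0.12, adjusted p = 2.61e-05) higher with siRNA-1 than with siRNA-2. MEF2C-AS1, an antisense RNA, was at most 1.21 CPM in any library and shares 422 exon bases with MEF2C, from which reads cannot be told apart. It fell by 0.75 with siRNA-2 (SE 0.23, adjusted p = 0.0243), at 0.503 ± 0.0608 CPM against 0.864 ± 0.109 CPM with scramble (SD, n = 3 each), and the call ended without siRNA-2 library 2 (-0.68) or 3 (-0.73) and without scramble library 1 (-0.71) or 2 (-0.68).

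Under overexpression by the ATRNL1 lentivirus MEF2C had 106, 129 and 106 CPM, against 145, 146 and 142 CPM with the control lentivirus. All ATRNL1 libraries lay below the controls, the second nearest to them, and MEF2C fell by 0.35 (SE 0.07, adjusted p = 0.00029). MEF2A and MEF2C thus moved in opposite directions under the ATRNL1 lentivirus, and both kept their direction and call in all 15 alternatives.

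SRF (ENSG00000112658.7, chromosome 6, 43171299 to 43181507, plus strand) links the actin cytoskeleton and growth signals to muscle gene transcription. It had 184, 163 and 133 CPM in siRNA-1 cells, 149, 175 and 174 CPM in siRNA-2 cells and 143, 147 and 146 CPM with scramble. The siRNA-1 libraries ran on both sides of scramble and the siRNA-2 libraries lay above it, at 0.14 (SE 0.10, adjusted p = 0.462) and 0.19 (SE 0.10, adjusted p = 0.188). Under the ATRNL1 lentivirus SRF had 107, 132 and 129 CPM, against 93.9, 90.5 and 80.9 CPM with the control lentivirus. The groups were apart, and SRF rose by 0.47 (SE 0.10, adjusted p = 0.000347), 1.38-fold.

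MYOCD (ENSG00000141052.17, chromosome 17, 12665890 to 12768949, plus strand) had 463, 445 and 422 CPM in siRNA-1 cells, 403, 384 and 373 CPM in siRNA-2 cells and 539, 351 and 438 CPM with scramble. The scramble libraries covered the range of both siRNA groups. The value was 0.00 (SE 0.10, adjusted p = 0.99) under siRNA-1. It was -0.19 (SE 0.10, adjusted p = 0.197) under siRNA-2, and without scramble library 2 the siRNA-2 value was -0.34 and was called. With the ATRNL1 lentivirus MYOCD had 552, 639 and 589 CPM, against 865, 847 and 824 CPM with the control lentivirus. The groups were far apart, and MYOCD fell by 29.8%, a log2 value of -0.51 (SE 0.10, adjusted p = 0.000188), called in all 15 alternatives at -0.56 to -0.45. SRF and its coactivator thus moved in opposite directions under overexpression, although the SRF call ended with GC content offsets, at 0.17. MYOCD-AS1, which lies antisense within the MYOCD span and shares no exon base with it, fell by 0.66 (SE 0.14, adjusted p = 0.000653), to 4.19 ± 0.778 CPM with the ATRNL1 lentivirus, against 6.65 ± 0.658 CPM with the control lentivirus (SD, n = 3 each). ARHGAP44-AS1, which shares 704 exon bases with MYOCD, fell by 0.39 (SE 0.14, adjusted p = 0.0309). That call ended without ATRNL1 library 2 (-0.26) or 3 (-0.36), without control library 1 (-0.39) or 2 (-0.34), and with the GC offsets described further on (-0.34). As the strand setting is unknown, reads of MYOCD RNA, spliced or not, may have been counted for either antisense gene.

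The overexpression effect was set against the mean knockdown effect in 1 contrast. Of the 8 factors, 2 were called, where 32% of all genes were called, 16.5% higher and 15.5% lower. At a mean of 1 CPM or more, 51.2% of genes were called. The difference was 0.26 (SE 0.10, adjusted p = 0.0379) for GATA4, which was -0.01 with GC content offsets, and -0.41 (SE 0.13, adjusted p = 0.0168) for MYOCD. The GATA4 call ended when ATRNL1 library 2 (0.23) or 3 (0.21), siRNA-1 library 3 (0.25), siRNA-2 library 1 or 3 (0.26), scramble library 1 (0.26) or 3 (0.27), or any control lentivirus library (0.25 to 0.27) was left out. The MYOCD call ended without scramble library 2 (-0.26) or ATRNL1 library 1 (-0.36). Against scramble library 1 alone the MYOCD value was -0.11. For the other 6 factors the differences ran from -0.09 for MEF2C to 0.30 for SRF and none passed the threshold.

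The control lentivirus and scramble groups received no ATRNL1 reagent, and delivery, selection and any batch differ between them together and cannot be told apart. All 8 factors were called between them with no overlap of libraries. Of all genes 63.6% were called, 30.3% higher and 33.2% lower, and 68.5% had libraries that did not overlap. At a mean of 1 CPM or more, 80.6% of genes were called. The log2 values were 0.49 for GATA6, 0.61 for MEF2A, 0.55 for MEF2C and 0.93 for MYOCD, and -0.97 for GATA4, -1.80 for NKX2-5, -0.24 for TBX20 and -0.72 for SRF. GATA4, NKX2-5, TBX20 and SRF, lower with the control lentivirus, rose with the ATRNL1 lentivirus, and MEF2C and MYOCD, higher with the control lentivirus, fell. GATA6 and MEF2A were higher in both comparisons. Both share the control lentivirus libraries, and these signs are without GC content offsets. In the order of the 5 groups by mean CPM, 15 of 32 neighbouring pairs differed, and this order is given before GC content was taken into account. In the pairs across the arms that come up in this order, 57.1% of all genes were called between the ATRNL1 lentivirus and scramble, 52.6% between it and siRNA-1 and 56.1% between it and siRNA-2, and 60.7% and 63.6% between the control lentivirus and siRNA-1 or siRNA-2. Scramble and both siRNA groups stood above both lentiviral groups for GATA4, NKX2-5 and SRF, with the step between arms at 0.67, 1.5 and 0.25 on the log2 scale. Both lentiviral groups stood above the siRNA arm for GATA6, MEF2A, MEF2C and MYOCD. The nearest groups across the arms differed by 0.43 (adjusted p = 3.46e-05) for MEF2A and by 0.42 (adjusted p = 0.000834) for MYOCD, while GATA6 (0.16, adjusted p = 0.0964) and MEF2C (0.15, adjusted p = 0.0768) did not pass the threshold. For TBX20 the ATRNL1 lentivirus group at 516 ± 36.5 CPM stood beside siRNA-1 at 518 ± 8.44 CPM (SD, n = 3 each), and the control lentivirus group was lowest.

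Fold changes of all genes followed the GC content of the longest transcript in the lentiviral comparisons, and the 8 factors span much of that range. All genes were divided by GC content into 5 bins of about equal gene number, bounded at 25.1%, 40.6%, 44.9%, 50%, 56.5% and 74.5%. From the lowest bin to the highest, the median log2 fold change with the ATRNL1 lentivirus was -0.14, -0.09, -0.04, 0.06 and 0.25. Between the control lentivirus and scramble it was 0.49, 0.28, 0.02, -0.40 and -1.19. In the siRNA comparisons the medians of all bins lay between -0.09 and 0.05. GC content was 39% for MEF2C, 41.3% for MEF2A, 44.7% for MYOCD, 55.3% for GATA6, 57% for TBX20, 60.9% for SRF, 61.1% for GATA4 and 66.2% for NKX2-5. The factors that rose with the ATRNL1 lentivirus had GC contents of 55.3% or more, apart from MEF2A at 41.3%, and both that fell had 44.7% or less. The part of GC content in these values was not tested beyond the offsets that follow.

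When the trends over GC content and transcript length were removed in each library, an alternative chosen after seeing the data, 4 of 8 factors stayed called with the ATRNL1 lentivirus, where 38.1% of all genes were called under the same offsets. They were MEF2A (0.33), MEF2C (-0.28), TBX20 (0.32) and MYOCD (-0.49). GATA6 (0.20) and SRF (0.17) were no longer called, and GATA4 (-0.09) and NKX2-5 (-0.11) changed sign without being called. Between the control lentivirus and scramble, GATA4 (0.20), TBX20 (0.47) and SRF (0.42) turned from lower to higher, and GATA6 (1.01), MEF2A (0.15) and MYOCD (0.64) stayed higher and called. MEF2C at -0.01 and NKX2-5 at -0.04 were not called, and 56.8% of all genes were. The siRNA-2 values of GATA6 (0.30), TBX20 (0.28) and MEF2C (-0.57) kept their calls, as did TBX20 with siRNA-1 (0.26). MEF2A gained a call with siRNA-2, at 0.15, where 22.2% of all genes were called under the same offsets.

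**Figure D3:**
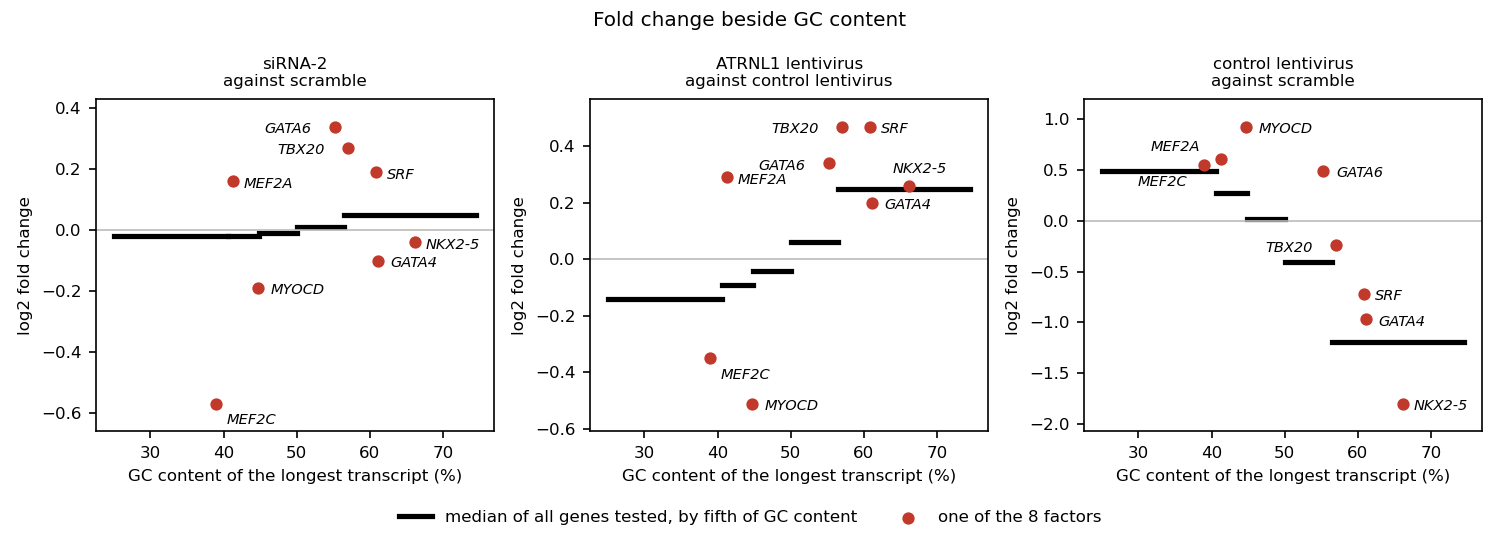
Log2 fold change (vertical axes, scales differ) against GC content of the longest transcript in percent (horizontal axes) in 3 comparisons, with red points for the 8 factors and black lines for the median of all genes tested in each of 5 bins of GC content. The medians are near 0 with siRNA-2, climb to 0.25 with the ATRNL1 lentivirus and drop to -1.19 between the control lentivirus and scramble.

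Other cardiac transcription factors formed a list of 32 genes with 30 tested. Under the ATRNL1 lentivirus 19 rose and 3 fell, with a median of 0.31, against 0 over all genes, and 15 rose and 4 fell with the GC offsets. Over all genes tested 37.1% were called. When only genes with a mean of at least 1 CPM were tested, as most genes of this list and those below had, 56.5% were called. That share was 19.8% with siRNA-1 and 32.9% with siRNA-2. NKX2-6, a relative of NKX2-5, rose by 1.61 (0.972 ± 0.231 CPM against 0.308 ± 0.0376 CPM with the control lentivirus). With scramble NKX2-6 had 3.21 ± 0.0689 CPM. The estrogen-related receptors ESRRA (1.23, SE 0.11, adjusted p = 2.32e-09) and ESRRB (1.15, SE 0.11, adjusted p = 1.23e-08), which drive genes of energy metabolism, also rose. Each stood at 0.9 with the GC offsets. ESRRA had 8.51 ± 1.33 CPM with the ATRNL1 lentivirus, 3.57 ± 0.416 CPM with the control lentivirus and 31.4 ± 1.23 CPM with scramble. TBX5, a T-box partner of NKX2-5 and GATA4, fell by 0.23 (SE 0.08, adjusted p = 0.0175), and SHOX2, a sinus node factor, fell by 0.63 (SE 0.22, adjusted p = 0.0237). The TBX5 call ended without any single control library (-0.23 to -0.22) and without ATRNL1 library 1 (-0.15) or 3 (-0.22), and the SHOX2 call without control library 1 (-0.58) or 3 (-0.61) or ATRNL1 library 1 (-0.51) or 3 (-0.56).

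With siRNA-1, 7 of the 30 rose and none fell, with a median of 0.14, against -0.01 over all genes (called: 9.61% of all genes, 19.8% at 1 CPM or more). ISL1, a factor of the second heart field and the sinus node, rose by 0.47 (SE 0.13, adjusted p = 0.0205), a call that ended without siRNA-1 library 2 (0.47) or 3 (0.45) or scramble library 3 (0.36). Without siRNA-1 library 1 or scramble library 2, 2 genes of the list were called, and without siRNA-1 library 2 or scramble library 3, 1 was. With siRNA-2, 4 rose and 2 fell, with a median of 0.07, against 0 over all genes (called: 18.1% of all genes, 32.9% at 1 CPM or more). TBX3, which represses working muscle genes in the conduction system, rose by 0.44 (SE 0.08, adjusted p = 0.000198), and GATA5 rose by 0.42 (SE 0.10, adjusted p = 0.00319). Against scramble library 1 alone these values were 0.28 for TBX3 and 0.38 for GATA5. With siRNA-1 TBX3 rose by 0.28 (SE 0.08, adjusted p = 0.024), and GATA5 was not called at 0.07 (SE 0.10, adjusted p = 0.776). The count of 6 dropped to 3 without siRNA-2 library 1 or scramble library 2 and to 2 without siRNA-2 library 2 or scramble library 3. PPARGC1A, a coactivator of mitochondrial genes, and TEAD1, a partner of YAP1, fell by 0.22 and 0.23, calls that ended without any single siRNA-2 library (PPARGC1A -0.23 to -0.21, TEAD1 -0.24 to -0.22). The PPARGC1A call also ended without scramble library 2 (-0.19) or 3 (-0.23), and the TEAD1 call without scramble library 1 (-0.20) or 3 (-0.24).

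Cofactors and upstream regulators of the 8 formed a list of 32 genes that were all tested. Under the ATRNL1 lentivirus 13 rose and 5 fell, with a median of 0.11, against 0 over all genes, and 11 rose and 9 fell with the GC offsets. Of all genes 37.1% were called, and 56.5% at a mean of 1 CPM or more. NFATC4, a calcineurin-responsive partner of GATA4 and MEF2 (0.98, SE 0.08, adjusted p = 2.53e-10), and CABIN1, an inhibitor of calcineurin and MEF2 (0.84, SE 0.07, adjusted p = 3.48e-10), rose. With the GC offsets these values were 0.71 and 0.56. NFATC4 had 15.6 ± 1.41 CPM with the ATRNL1 lentivirus, 7.94 ± 0.108 CPM with the control lentivirus and 27 ± 0.869 CPM with scramble. ZFPM2, the FOG2 cofactor of GATA4, fell by 0.40 (SE 0.06, adjusted p = 1.16e-05), and CAMK2D, a kinase that relieves MEF2 of class II histone deacetylases, fell by 0.44 (SE 0.08, adjusted p = 4.87e-05). CAMK2D stood at 455 ± 50 CPM with the ATRNL1 lentivirus and 615 ± 15.3 CPM with the control lentivirus (SD, n = 3 each).

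With siRNA-1, 5 of the 32 rose and 1 fell, with a median of 0.06, against -0.01 over all genes (called: 9.61% of all genes, 19.8% at 1 CPM or more). With siRNA-2, 10 rose and 4 fell, also with a median of 0.06, against 0 over all genes (called: 18.1% of all genes, 32.9% at 1 CPM or more). Without scramble library 3, 9 of the list were called. WWTR1, which encodes the TEAD coactivator TAZ, rose by 0.81 (SE 0.09, adjusted p = 8.49e-07) under siRNA-1. Under siRNA-2 it rose by 0.64 (SE 0.09, adjusted p = 6.26e-06). Its means were 166 ± 7.73 CPM in siRNA-1 cells and 148 ± 2.84 CPM in siRNA-2 cells, against 94.8 ± 12.6 CPM with scramble (SD, n = 3 each). YAP1, its paralog, fell by 0.36 (SE 0.08, adjusted p = 0.00488) with siRNA-1. Against scramble library 2 or 3 alone the YAP1 value was -0.25 or -0.36. HOPX, a homeodomain-only protein that restrains SRF, rose by 0.71 (SE 0.10, adjusted p = 1.15e-05) with siRNA-2 and by 0.43 (SE 0.10, adjusted p = 0.00727) with siRNA-1. NFATC3 (-0.38, SE 0.07, adjusted p = 0.000267) and MAPK14 (-0.31, SE 0.07, adjusted p = 0.00126), the p38 alpha kinase that phosphorylates MEF2 proteins, fell with siRNA-2. Against scramble library 1 alone these values were -0.32 for NFATC3 and -0.3 for MAPK14.

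Heart muscle genes known as targets of these factors, a list of 38 that were all tested, changed in both directions in each comparison. Under overexpression 15 rose and 8 fell, with a median of 0.16, against 0 over all genes, and 14 rose and 10 fell with the GC offsets. Of all genes 37.1% were called, and 56.5% at a mean of 1 CPM or more. TNNI3, the adult form of cardiac troponin I, rose by 1.27 (SE 0.10, adjusted p = 4.02e-10), at 64.7 ± 3.04 CPM against 26.9 ± 3.04 CPM with the control lentivirus (SD, n = 3 each). With scramble TNNI3 had 77.3 ± 4.39 CPM. XIRP2, a MEF2 target at the intercalated disc in mice, rose by 1.36 (SE 0.25, adjusted p = 8.37e-05). MYH6, the alpha myosin heavy chain of atrial muscle, fell by 0.63 (SE 0.11, adjusted p = 4.67e-05), at 2923.2 ± 232 CPM against 4518.6 ± 84.4 CPM (SD, n = 3 each), and MYOT, a Z-disc protein, fell by 0.76 (SE 0.11, adjusted p = 6.33e-06). The list shares 9 genes with the cardiomyocyte markers and MYH7 with the ventricular markers, whose sums stand above. The part of cell composition in these values was not tested.

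With siRNA-1, 7 of the 38 rose and 4 fell, with a median of 0.03, against -0.01 over all genes (called: 9.61% of all genes, 19.8% at 1 CPM or more). With siRNA-2, 8 rose and 5 fell, with a median of 0.02, against 0 over all genes (called: 18.1% of all genes, 32.9% at 1 CPM or more). XIRP2 rose with both, to 31 ± 14.4 CPM in siRNA-1 cells and 22 ± 0.895 CPM in siRNA-2 cells, against 5.84 ± 3.29 CPM with scramble (SD, n = 3 each). NPPA, the atrial natriuretic peptide gene and a classic target of GATA4, NKX2-5 and SRF, fell by 0.62 (SE 0.11, adjusted p = 0.000569) under siRNA-1. Under siRNA-2 it fell by 0.60 (SE 0.11, adjusted p = 0.000383). ATP2A2, the calcium pump of the sarcoplasmic reticulum, fell by 0.44 (SE 0.07, adjusted p = 0.000216) with siRNA-1. Its siRNA-2 value was -0.5 (SE 0.07, adjusted p = 1.84e-05). MYH7, the beta myosin heavy chain, rose by 0.83 (SE 0.08, adjusted p = 8.82e-08) with siRNA-2, and HSPB3, a small heat shock protein of muscle, fell by 0.55 (SE 0.09, adjusted p = 4.82e-05). With siRNA-1 MYH7 also rose, by 0.49 (SE 0.08, adjusted p = 0.000257), whereas HSPB3 was not called at 0.17 (SE 0.09, adjusted p = 0.255). The siRNA-1 count of 11 was 7 without siRNA-1 library 1 and 6 without siRNA-1 library 2 or scramble library 3.

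SRF and myocardin targets, a list of 33 genes that were all tested, split under the ATRNL1 lentivirus into 11 that rose and 9 that fell, with a median of 0.11, against 0 over all genes. Of all genes 37.1% were called, and 56.5% at a mean of 1 CPM or more. With the GC offsets 10 rose and 11 fell and the median was -0.05. The 3 largest rises were those of growth-response genes: EGR3 rose by 3.57 (SE 0.27, adjusted p = 9.21e-11), FOSB by 3.10 (SE 0.22, adjusted p = 2.39e-11) and EGR1 by 2.15 (SE 0.13, adjusted p = 1.5e-12). EGR1 had 36.4 ± 9.8 CPM with the ATRNL1 lentivirus and 8.22 ± 1.02 CPM with the control lentivirus (SD, n = 3 each). With scramble EGR1 had 35.2 ± 1.72 CPM, and the control lentivirus against scramble gave -2.1 (SE 0.13, adjusted p = 2.38e-13). EGR3 had 3.72 ± 1.5 CPM with the ATRNL1 lentivirus, 0.283 ± 0.126 CPM with the control lentivirus and 2.05 ± 0.115 CPM with scramble. At the bottom were ABRA, which encodes the SRF activator STARS (-1.36, SE 0.18, adjusted p = 1.65e-06), TAGLN, the smooth muscle actin-binding protein transgelin (-1.10, SE 0.18, adjusted p = 3.02e-05), and SYNPO2, a Z-disc actin bundler (-0.97, SE 0.11, adjusted p = 5.18e-08). SYNPO2 had 90.8 ± 5.2 CPM with the ATRNL1 lentivirus and 178 ± 0.505 CPM with the control lentivirus (SD, n = 3 each). ABRA had 4.36 ± 0.166 CPM with the ATRNL1 lentivirus, 11.2 ± 1.25 CPM with the control lentivirus and 2 ± 0.651 CPM with scramble. The 8 smooth muscle and pericyte markers, 4 of which are in this list, summed to 546 to 619 CPM with the ATRNL1 lentivirus, against 633 to 653 CPM with the control lentivirus. The 4 that are not in the list (RGS5, CSPG4, NOTCH3 and PDGFRB) summed to 235 to 287 CPM with the ATRNL1 lentivirus, against 351 to 361 CPM with the control lentivirus. Over the 15 libraries RGS5 averaged 172 CPM, CSPG4 7.83 CPM, NOTCH3 2.47 CPM and PDGFRB 0.357 CPM. Of the 8 markers 2 rose and 2 fell in this comparison. The part of the markers in the result was not tested.

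**Figure D4:**
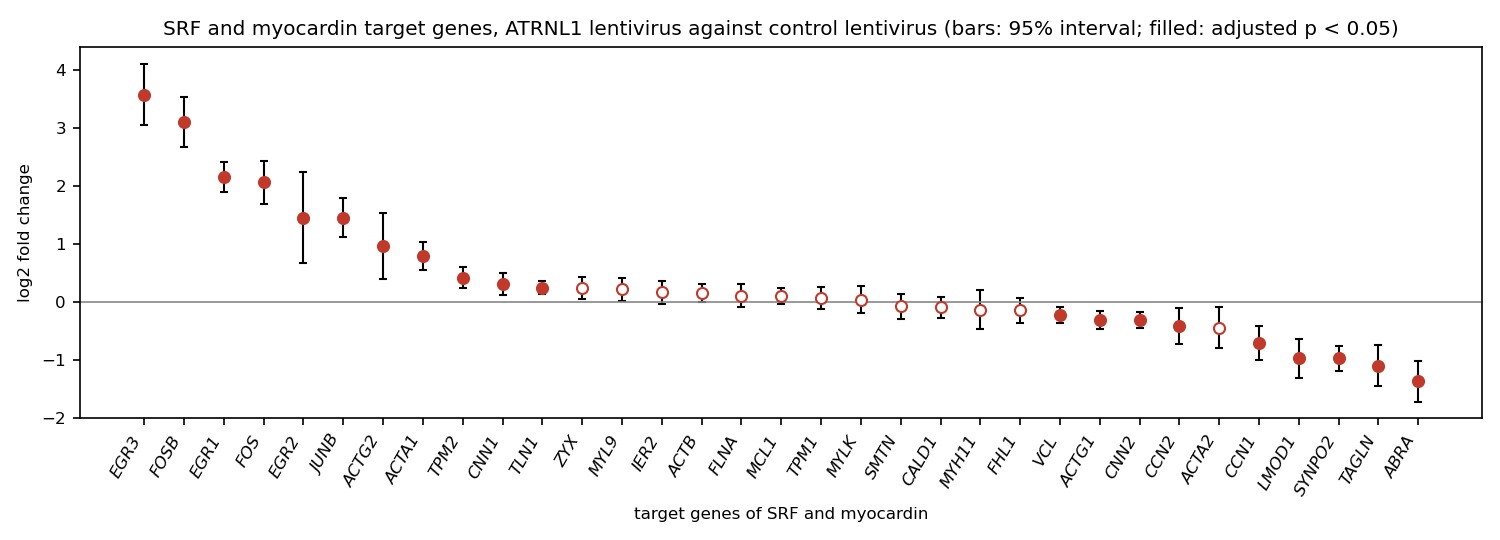
Log2 fold change (vertical axis) of the 33 SRF and myocardin target genes with the ATRNL1 lentivirus against the control lentivirus, ordered from highest to lowest, with 95% intervals and filled points where the adjusted p was under 0.05. EGR3, FOSB and EGR1 lie above 2, and TAGLN and ABRA lie below -1.

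With siRNA-2, 11 of the 33 rose and 2 fell, with a median of 0.19, against 0 over all genes (called: 18.1% of all genes, 32.9% at 1 CPM or more). CNN1, smooth muscle calponin (0.91, SE 0.10, adjusted p = 2.75e-07), and ACTA1, skeletal alpha actin (0.77, SE 0.12, adjusted p = 3.94e-05), rose. EGR1 fell by 0.48 (SE 0.12, adjusted p = 0.00569) and ACTG1, cytoplasmic gamma actin, fell by 0.39 (SE 0.08, adjusted p = 0.00123). Against scramble library 2 alone these values were -0.39 for EGR1 and -0.17 for ACTG1. The smooth muscle and pericyte markers summed to 423 to 496 CPM in siRNA-2 cells, against 269 to 343 CPM with scramble, but 4 of them, CNN1 included, are in this list. The 4 that are not summed to 102 to 109 CPM in siRNA-2 cells, within the 81.4 to 143 CPM of scramble. With siRNA-1, 5 rose and 1 fell, with a median of 0.16, against -0.01 over all genes (called: 9.61% of all genes, 19.8% at 1 CPM or more). The markers summed to 271 to 366 CPM. The siRNA-1 count of 6 was 10 without siRNA-1 library 3 or scramble library 1 and 3 without scramble library 3.

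Genes whose log2 CPM, centred on its mean, came closest to each factor's over the 15 libraries were sought among 11032 genes. For TBX20 they were FZD4 (root mean square difference 0.049 on the log2 scale), ZNF71 (0.0532) and SMIM10L2A (0.0639). For GATA4 they were SLC35A4 (0.0423), EDF1 (0.0475) and MIER2 (0.0546), for GATA6 TOB1 (0.0547), RBM24 (0.0637) and UBTD2 (0.0682), and for NKX2-5 GTPBP6 (0.119), PRR12 (0.122) and CPSF1 (0.122). The nearest to MEF2A were ZBTB1 (0.0577), LRRFIP1 (0.0603) and DDX6 (0.0684), and to MEF2C PEX7 (0.0491), SLC35A5 (0.0694) and CDC23 (0.0783). Among the genes nearest to SRF were C6orf47 (0.0943) and BOK (0.0958), and the nearest to MYOCD were CAB39L (0.0704), DIXDC1 (0.0751) and BEX3 (0.0791). NKX2-5 had no gene within 0.1, whereas GATA4 had 101 and MEF2A 75. The 3 genes nearest to NKX2-5 had GC contents of 61.2%, 66.3% and 62.3%, beside its own 66.2%. Over the 9 siRNA libraries alone, 0 of the 24 nearest genes, 3 for each factor, were again among the nearest.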

How the data were processed

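The labels' molecule field names polyA RNA, whereas the labels' protocols describe total RNA depleted of ribosomal RNA. The authors deposited whole-number read counts per gene for 15 libraries, not normalized. The build GRCh38 and the tools DESeq2 1.30.1 and STAR 2.7.9a are named, without roles, per the submitters' processing notes. Which program counted reads, and with which strand setting, is not given in the sources used here. Of 59429 rows, 58780 carried GENCODE release 29 identifiers, and the 649 rows with a bare number, which held 0.00157% to 0.00437% of a library's counts, were left out. Each column names a group and a number, and matches no sample title, so library numbers are those of the columns.

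Genes were kept with filterByExpr by group (24659 genes), scaled with TMM and fitted as 5 group means over all 15 libraries with edgeR 4.0.16 in R 4.3.3. Every adjusted p comes from the edgeR quasi-likelihood test, adjusted by Benjamini-Hochberg over all genes tested and called under 0.05. The biological coefficient of variation was 8.24%. The SE was taken as the absolute log2 fold change over the root of the F statistic, intervals are 95% normal intervals, and CPM uses TMM-scaled library sizes. The fit was tested on simulated data, which held no trend over GC content and so cannot bear on that trend. Alternatives used DESeq2 1.42.0 and limma 3.58.1 (voom), library size or upper-quartile scaling, no filter or a mean of at least 1 CPM, the delivery arm alone, each library left out, each scramble library as the sole control, and, chosen after seeing the data, GC content and length offsets and a replicate block.

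From each gene list the text names at most the 3 largest rises and 3 largest falls among called genes with a mean of at least 1 CPM, and every gene whose span overlaps a factor's could be named; some genes that the rule names are not reported here. The lists were other cardiac transcription factors, cofactors and regulators, heart muscle target genes, SRF and myocardin target genes, and markers of 9 cell types. The 8 factors, the lists and the tests were chosen with earlier results of these data known.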

Additional observations from a re-analysis of the deposited data

Results flagged for a closer look

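MEF2C responded differently to the 2 siRNAs: tested directly, siRNA-1 exceeded siRNA-2 by a log2 difference of 0.62 (SE 0.07, adjusted p = 1.78e-06), with all 3 siRNA-1 libraries above all 3 siRNA-2 libraries. GATA4 differed between the overexpression effect and the mean knockdown effect by 0.26 (SE 0.10, adjusted p = 0.0379), and the value was -0.01 with GC content and length offsets. MYOCD differed between these effects by -0.41 (SE 0.13, adjusted p = 0.0168). That call ended without scramble library 2 (-0.26) or ATRNL1 library 1 (-0.36). The value ran from -0.74 to -0.11 over the alternatives, and was -0.11 with scramble library 1 as the sole control. Groups of 3 libraries were not searched for outlying libraries.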

How the results depend on the processing

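The columns' names end in a number, 1 to 3, in each group, and nothing says that it marks a shared culture or day. Same-numbered libraries of 2 groups deviated from their group means with correlations of -0.262 to 0.395 over 7254 genes, so the numbers were taken not to pair them. In no comparison did every library correlate best with its own number. With the number as a replicate block, chosen after seeing the data, the 8 factors called numbered 1 with siRNA-1, 3 with siRNA-2 and 8 with the ATRNL1 lentivirus, and the genes called over all genes 2336, 4421 and 9065, against 2370, 4470 and 9149 without it.

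The number of the 8 factors called was 1 with siRNA-1 (9.61% of all genes), and became 3 in the siRNA arm alone (13.8%), 3 with library size only (11%), 0, 2 and 0 with scramble library 1, 2 or 3 as the sole control (2.12%, 9.31% and 3.99%), and 0 to 1 with a library left out. With siRNA-2 it was 3 (18.1%) and 5 with library size only (20.2%). GC content and length offsets added MEF2A (22.2%), and the number was 3 to 3 with a library left out. Between the siRNAs it was 1 (10.1%), 2 with GC content and length offsets (12.9%), 2 with library size only (12.6%) and 1 to 1 with a library left out. With the ATRNL1 lentivirus it was 8 (37.1%), 4 with the offsets (38.1%) and 6 to 8 with a library left out, and between the control lentivirus and scramble 8 and 8 to 8. For the overexpression effect less the average knockdown effect it was 2 (32%), then 1 with the offsets (33.9%), 1 with each scramble library as the sole control (18.3% to 26.4%), 5 with upper-quartile scaling (33.7%) and 1 to 4 with a library left out. The cause of these shifts was not tested, beyond the smaller number of libraries where 1 was left out.

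Called values that changed sign did so with the GC content and length offsets. With the ATRNL1 lentivirus they were GATA4 (-0.09) and NKX2-5 (-0.11). Between the control lentivirus and scramble they were GATA4 (0.20), MEF2C (-0.01), TBX20 (0.47), SRF (0.42) and the GATA cofactor gene ZFPM1 (0.13), and for the overexpression effect less the average knockdown effect GATA4 (-0.01). Over the 8 factors and the 6 contrasts, 803 of the alternative values stayed on the same side of the threshold with no called value changing sign, 25 gained a call, 37 lost one and 7 reversed. Of the 803, 24 were uncalled values on the other side of 0.

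With library size only, the median of all genes between the control lentivirus and scramble was -0.26, against -0.06 with TMM, and the share of calls that were higher was 36.6%, against 47.7%. That share was 70.1%, against 53.2%, for siRNA-2 and 33.7%, against 55.3%, between siRNA-1 and siRNA-2. The order of the 5 groups kept all places for 3 of 8 factors with library size only, and 17 of the 32 neighbouring pairs then differed, against 15. All 8 factors had at least 1634 counts in every library.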

Other observations

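The titles of 4 groups hold, beside 2 libraries, a library whose number joins the digits of the other two, and the labels do not say whether it marks a mixture. In 2 of these groups, numbered by column, library 2 was nearer to libraries 1 and 3 than they were to each other: the SD of the log2 difference over genes above 20 CPM was 0.0832 and 0.0967, against 0.141 between 1 and 3, for siRNA-1, and 0.0835 and 0.0764, against 0.12, for the control lentivirus. For siRNA-2 the 3 values were 0.106, 0.105 and 0.105, and for the ATRNL1 lentivirus 0.177, 0.143 and 0.188. In scramble, whose titles hold no such number, library 3 was nearer to libraries 1 (0.132) and 2 (0.137) than they were to each other (0.253).

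The fibroblast markers summed to 130 to 164 CPM with the ATRNL1 lentivirus, against 119 to 124 CPM with the control lentivirus, and to 216 to 239 CPM with siRNA-1 and 209 to 222 CPM with siRNA-2, against 161 to 227 CPM with scramble. Over all libraries the endothelial and endocardial markers summed to 46.1 to 73.1 CPM. KDR alone averaged 58.8 CPM, and 6 or 7 of these 8 markers averaged under 1 CPM in each group. The epicardial markers summed to 7.42 to 16.2 CPM and the endoderm and liver markers to 19.4 to 29.7 CPM. Of the latter, AFP averaged 16.1 CPM and 6 of 10 averaged under 1 CPM in each group. MYF5 and MYF6 were at 0 in every library.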
